A study of Mus musculus with 31 samples.

Results

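Skeletal muscle genes were followed in mammary gland RNA of lactating mice. The list holds 40 genes of the sarcomere and of muscle energy and calcium handling, matched by gene symbol on GRCm39, and all 40 were found among the 55379 genes of the count files. C57BL/6J dams received a breeder diet with 4 mg/kg folic acid (FA) or an FA diet with 24 mg/kg FA, and a daily intraperitoneal injection of 20 mg/kg fluoxetine, a selective serotonin reuptake inhibitor, or of saline, from pregnancy on. Glands were taken on lactation day 10. By the labels, 8 dams had breeder diet + saline, 7 breeder diet + fluoxetine, 8 FA diet + saline and 8 FA diet + fluoxetine, with 1 library per dam. The study's methods state the numbers of both fluoxetine groups the other way round, and the labels were followed. Levels are CPM (a gene's counts scaled to a common library size) normalised by the trimmed mean of M-values (TMM), and the summed CPM of the 40 genes is called the muscle sum.

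A skeletal muscle fibre contracts when thick filaments of myosin pull on thin filaments of actin, which troponin and tropomyosin switch on when calcium leaves the sarcoplasmic reticulum. Fast fibres and slow fibres are built from different isoforms of myosin, troponin and the calcium pump, and slow fibres carry more myoglobin. The mammary gland holds no skeletal muscle of its own. Its contractile cells are the myoepithelium and the smooth muscle of vessels, but thin sheets of skeletal muscle lie against the fat pad. In a bulk tissue library, fewer cells of a type and less RNA per cell cannot be told apart.

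The stretches of 250 bases before the transcription start of 3 members are shown as examples. They were picked because letters that muscle regulators are known to read lie in them. Capitals mark the sequence CAGCTG, an E-box that MyoD family factors bind, and the site of MEF2, an AT-rich motif. *Ckm* encodes muscle creatine kinase, *Tnnt3* fast troponin T and *Cox6a2* the muscle form of a cytochrome c oxidase subunit. The windows lie at chr7:19144583-19144832 (plus strand), chr7:142052170-142052419 (plus strand) and chr7:127805560-127805809 (minus strand) of GRCm39, upstream of the canonical transcript of GENCODE vM39, and overlap no annotated exon.
Ckm: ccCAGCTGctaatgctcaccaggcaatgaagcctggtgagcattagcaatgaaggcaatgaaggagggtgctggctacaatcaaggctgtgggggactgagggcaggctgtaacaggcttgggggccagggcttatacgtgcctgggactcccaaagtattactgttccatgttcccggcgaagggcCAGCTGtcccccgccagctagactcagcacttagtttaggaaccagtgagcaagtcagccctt
Tnnt3: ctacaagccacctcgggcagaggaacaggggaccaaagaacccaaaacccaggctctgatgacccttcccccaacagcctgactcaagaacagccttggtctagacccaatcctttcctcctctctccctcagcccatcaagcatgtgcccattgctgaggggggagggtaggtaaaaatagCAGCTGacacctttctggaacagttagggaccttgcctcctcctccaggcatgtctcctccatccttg
Cox6a2: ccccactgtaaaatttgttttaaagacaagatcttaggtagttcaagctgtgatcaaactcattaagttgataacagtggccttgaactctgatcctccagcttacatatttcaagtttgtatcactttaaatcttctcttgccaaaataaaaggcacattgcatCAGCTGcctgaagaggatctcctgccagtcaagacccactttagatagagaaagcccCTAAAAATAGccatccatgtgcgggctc

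CAGCTG was found in 10 of the 40 members' windows (25.0%), against 11.9% of 21770 windows of protein-coding genes. The MEF2 site was found in 7 (17.5%), against 2.79% of all windows, and both stood together in *Cox6a2* and *Pgam2*. The looser E-box CANNTG, which contains CAGCTG, was in 77.5% of the members and 64.8% of all windows. A CArG box, the site of serum response factor, was found in *Acta1* alone (2.50%, against 1.4% of all windows). TATAAA, read on both strands, was in 17.5% of the members and 11.9% of all windows. The other motifs read the same on both strands, and overlaps of TATAAA with the MEF2 site or CArG box were not removed. These are matches of letters, not sites shown to be bound. *Tnnc2*, *Tnni2* and *Tcap*, which followed the other members closely across libraries, had no CAGCTG, CArG box or MEF2 site in their windows. Whether the motifs bear on how members moved together was not tested.

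The amount of muscle RNA differed between dams far more than between groups. The muscle sum ran from 47.7 to 11266 CPM over the 31 libraries, a ratio of 236, with a median of 535. As a share of all counts this was 0.00436% to 1.2%. In breeder diet + saline it was lowest at 168, 717 at the median and highest at 3792 CPM. In breeder diet + fluoxetine the same values were 57.6, 407 and 11266 CPM, in FA diet + saline 122, 331 and 7306 CPM, and in FA diet + fluoxetine 47.7, 174 and 6562 CPM. The ranges of all 4 groups overlapped. Sums over 3000 CPM were found in 6 libraries, of which 1 had breeder diet + saline (dam 11), 1 breeder diet + fluoxetine (dam 5), 3 FA diet + saline (dams 4, 10 and 12) and 1 FA diet + fluoxetine (dam 10). Sums under 200 CPM were found in 10 libraries. On the log2 scale the SD between dams of a group was 1.33 in breeder diet + saline (n = 8), 2.57 in breeder diet + fluoxetine (n = 7), 2.43 in FA diet + saline (n = 8) and 2.33 in FA diet + fluoxetine (n = 8).

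**Figure D1:**
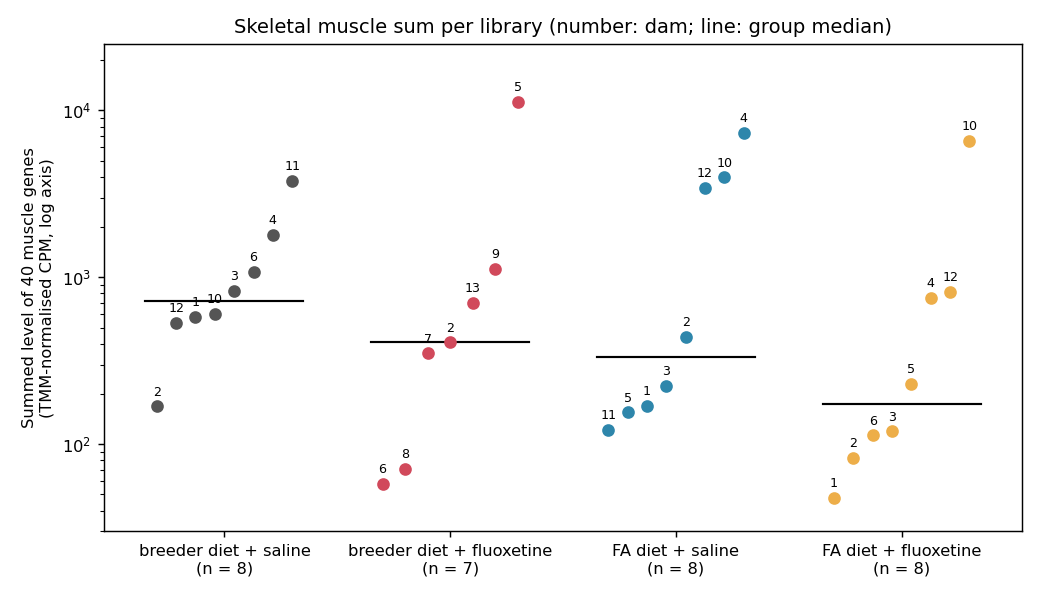
Summed TMM-normalised CPM of the 40 muscle genes in each of the 31 libraries, on a log axis, by group. Each point is 1 dam with its number, and the line is the group median. Sums ran from 47.7 to 11266 CPM, and in both fluoxetine groups a single dam (5 and 10) stood far above the others.

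Total counts were 15412542 to 36000439 per library, so that 3 counts, the most that a count of 0 allows, equal 0.0524 to 0.243 CPM. These limits cover counting error only. One library stood apart: in dam 3 of FA diet + fluoxetine the 20 most abundant genes held 39.3% of the counts, against 60.5% to 81.0% in the others, its TMM factor was 3.04, and its milk protein genes summed to 58609 CPM, the lowest of all. Its muscle sum was 119 CPM. Without it the median of FA diet + fluoxetine was 230 CPM in place of 174. The members had a count in 16 (this library) to 40 genes per library, and all 40 had one in 4 libraries.

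Among the thick filament genes, *Myh4* (fast IIb myosin heavy chain) was the most abundant per length after *Mylpf* (fast regulatory light chain). At the median of 31 libraries *Mylpf* had 14.5 and *Myh4* 7.21 CPM per kb of transcript. *Myh4* was at 9.37, 97.0 and 453 CPM in breeder diet + saline (lowest, median, highest), at 0, 41.3 and 1318 in breeder diet + fluoxetine, at 0.880, 26.7 and 1029 in FA diet + saline and at 0, 3.48 and 1010 in FA diet + fluoxetine. It had no count in 6 libraries, 2 of breeder diet + fluoxetine (dams 6 and 8) and 4 of FA diet + fluoxetine (dams 1, 2, 3 and 6), which is 6 of 15 fluoxetine and 0 of 16 saline libraries. This split was noticed after the values were seen and is given without a test. The 0 allows up to 0.0524 to 0.177 CPM in these libraries, and the lowest saline library had 0.880 CPM. In the same 6 libraries *Acta1* reached at most 0.248 and *Ckm* at most 1.61 CPM, and *Tnnc2* was also at 0. Not every member split this way. *Casq1* was also at 0 in dams 5 and 11 of FA diet + saline, and *Myoz1* in dams 1 and 5 of that group. *Myh1* (IIx) and *Myh2* (IIa) had medians of 4.03 and 2.06 CPM, *Myl1* (essential light chain) 7.29, *Mybpc2* and *Mybpc1* (fast and slow myosin-binding protein C) 4.93 and 1.03, and the slow or cardiac forms *Myh7* and *Myl2* were at 0. *Myh1*, *Myh2* and *Myh4* are near-identical neighbours on chromosome 11, so their division of reads is uncertain.

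In the thin filament, *Acta1* (skeletal alpha-actin) was at 12.5, 74.3 and 471 CPM in breeder diet + saline, at 0.118, 43.1 and 1536 in breeder diet + fluoxetine, at 1.28, 31 and 881 in FA diet + saline and at 0, 5.11 and 708 in FA diet + fluoxetine. *Tnnt3*, *Tnni2* and *Tnnc2*, the fast troponins T, I and C, had medians of 38.7, 18.9 and 7.89 CPM and were highest in dam 5 of breeder diet + fluoxetine at 1039, 582 and 218 CPM. *Tnnt3* was at a median of 54.4, 32.3, 24.1 and 3.51 CPM in breeder diet + saline, breeder diet + fluoxetine, FA diet + saline and FA diet + fluoxetine. *Neb* (nebulin, a ruler of the thin filament) had a median of 3.52 CPM. The slow troponins *Tnnt1*, *Tnnc1* and *Tnni1* had medians of 0.115, 0.0977 and 0 CPM.

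*Tpm2* (beta-tropomyosin), which smooth muscle and myoepithelium also use, behaved otherwise. It was at 65.8, 102 and 242 CPM in breeder diet + saline, at 45.6, 84.2 and 588 in breeder diet + fluoxetine, at 80.4, 122 and 389 in FA diet + saline and at 35.8, 93.7 and 382 in FA diet + fluoxetine. It was never near 0, and in the 6 libraries without *Myh4* it was still at 35.8 to 96.7 CPM. It made up 5.22% to 84.0% of the muscle sum, and over 60% in 10 libraries. Without *Tpm2* and *Des* the sum ran from 11 to 10483 CPM, a ratio of 951.

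Of the Z-disc and scaffold genes, *Ttn* (titin, the elastic spring of the sarcomere) was at 5.01, 22.2 and 164 CPM in breeder diet + saline, at 0, 11.4 and 316 in breeder diet + fluoxetine, at 0.660, 7.64 and 218 in FA diet + saline and at 0, 1.88 and 193 in FA diet + fluoxetine. *Des* (desmin, the intermediate filament of muscle cells) had a count in every library, and its group medians were 13.2, 6.48, 5.49 and 2.82 CPM in the same order, with a highest value of 195. *Actn3* (alpha-actinin of fast fibres) had a median of 9.34 and *Actn2* (the alpha-actinin of all sarcomeres) of 3.21 CPM. *Ldb3*, *Tcap*, *Myoz1* and *Myot*, which anchor proteins at the Z-disc, had medians of 6.86, 5.01, 4.71 and 1.14 CPM. *Ldb3* and *Actn2*, like *Des*, were above 0 in all 31 libraries, with lowest values of 1.89 and 0.546 CPM.

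Of the excitation and calcium genes, *Atp2a1* (SERCA1, the calcium pump of fast fibres) was at group medians of 52.1, 18.1, 18.5 and 1.19 CPM in breeder diet + saline, breeder diet + fluoxetine, FA diet + saline and FA diet + fluoxetine, and reached 707 CPM. *Pvalb* (parvalbumin, a calcium buffer of fast fibres) had a median of 23.4 and a highest value of 633 CPM. *Ryr1* (the calcium release channel), *Casq1* (calsequestrin) and *Trdn* (triadin) had medians of 4.76, 3.79 and 3.17 CPM. *Cacna1s* (the voltage sensor of the release channel) had 0.214 CPM and *Sln* (sarcolipin, a brake on the pump) was at 0 in 19 of 31 libraries.

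Of the energy and oxygen genes, *Ckm* was at 10.4, 66.8 and 344 CPM in breeder diet + saline, at 0.414, 29.7 and 1272 in breeder diet + fluoxetine, at 1.5, 29.5 and 778 in FA diet + saline and at 0, 4.45 and 706 in FA diet + fluoxetine. *Eno3* (muscle enolase), *Pygm* (glycogen phosphorylase) and *Pgam2* (phosphoglycerate mutase) had medians of 13.1, 7.55 and 3.77 CPM. *Cox6a2* and *Ampd1* (muscle AMP deaminase) had 1.45 and 1.09 CPM. *Mb* (myoglobin, the oxygen store) had a median of only 0.772 CPM, with group medians of 1.54, 0.532, 0.991 and 0.407 CPM in the order above. Its highest values, 16.0, 14.7 and 12.1 CPM, were in dam 5 of breeder diet + fluoxetine, dam 11 of breeder diet + saline and dam 4 of FA diet + fluoxetine.

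**Figure D2:**
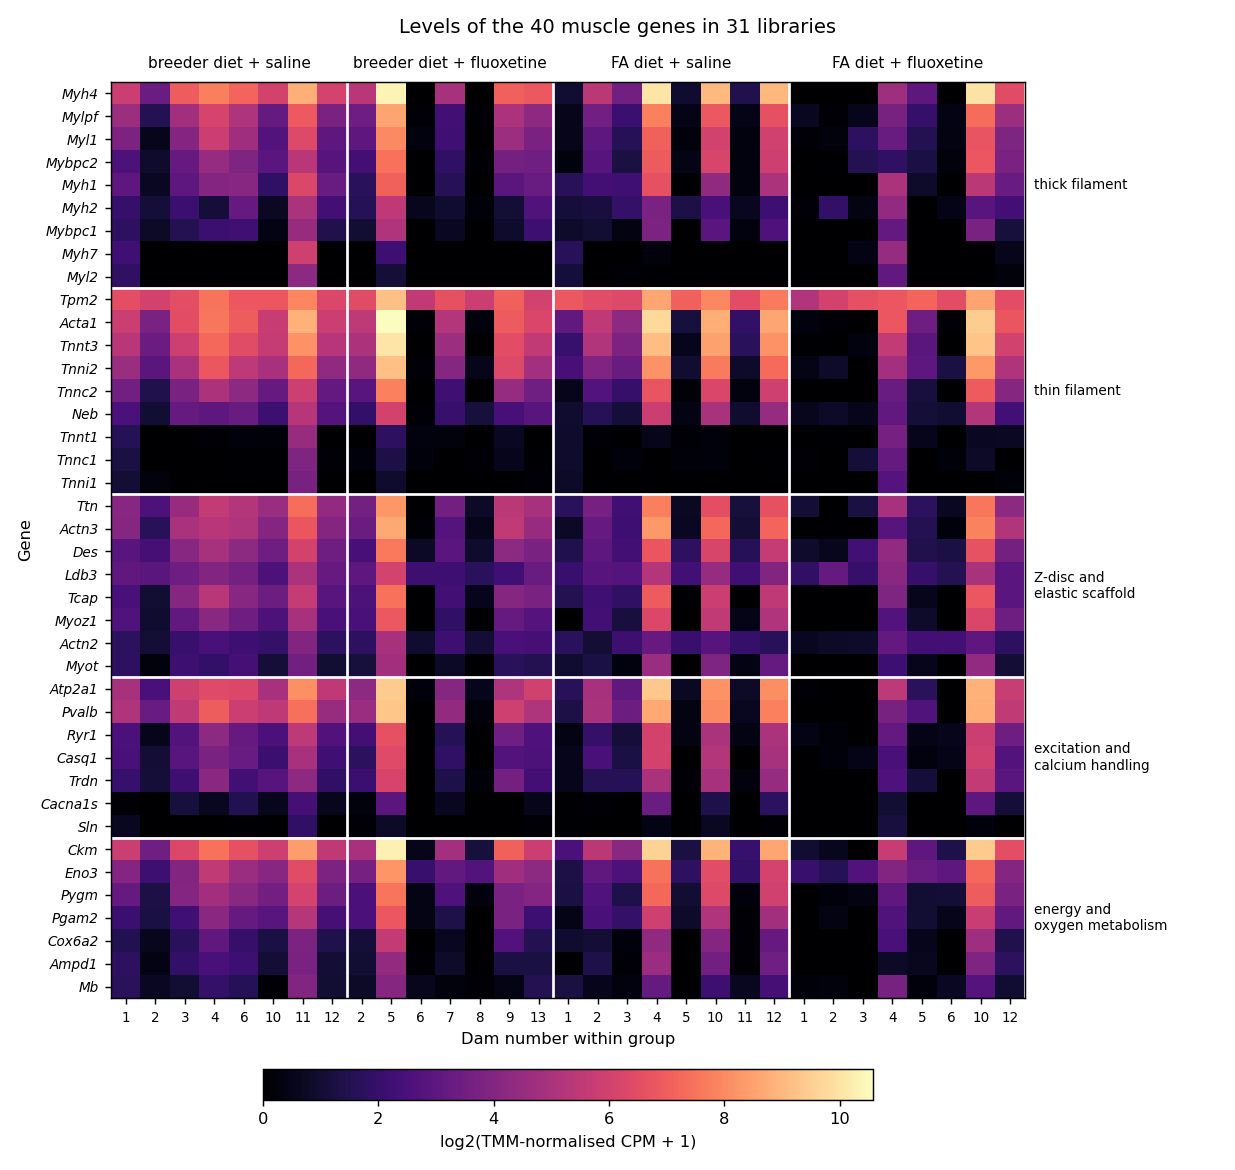
Level of each of the 40 genes (rows, by role) in each of the 31 libraries (columns, by group and dam number), as log2 of TMM-normalised CPM + 1. Whole columns are bright or dark together, *Tpm2* is bright throughout, and *Myh7*, *Myl2*, *Tnnt1*, *Tnnc1* and *Tnni1* are visible in few libraries.

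By role, the thin filament genes made up 31.5% to 86.2% of the muscle sum, the thick filament 0.480% to 24.2%, the Z-disc and scaffold 6.44% to 13.9%, excitation and calcium handling 0.308% to 17.0% and energy and oxygen 3.75% to 17.7%. In the 9 libraries with sums over 1000 CPM these shares were narrower, at 31.5% to 40.7% for the thin filament and 18.5% to 23.7% for the thick filament.

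Most members varied together. Spearman's rho of a member with the sum of the others over 31 libraries was above 0.9 for 28 of 40 genes, and the median over 780 pairs of members was 0.881. The highest values were 0.991 for *Tnnc2* and 0.991 for *Tnnt3*. These correlations share their libraries, depth and scaling and are a description. After group means of log2 CPM were removed, the first component held 89.6% of the variance and the next one 4.63%. This covers the 37 members that passed the filter on low counts, without *Myl2*, *Tnni1* and *Sln*. Genes were not scaled, so those of wide range weigh most. In *Des*, rho was 0.974, and in *Tpm2* 0.740. The coefficient was below 0.8 for 10 genes: *Actn2*, *Myh2*, *Myh7*, *Myl2*, *Tnnt1*, *Tnni1*, *Tnnc1*, *Tpm2*, *Mb* and *Sln*. Dam 5 of breeder diet + fluoxetine had the highest level of 32 members, dam 11 of breeder diet + saline of 6 and dam 4 of FA diet + saline of 2.

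Ratios to *Acta1* varied little for some members and widely for others. In libraries with at least 100 counts of both genes, the CPM of *Ryr1* relative to *Acta1* varied by 1.61-fold over 15 libraries, *Tnnt3* by 2.14-fold over 22, *Ckm* by 2.34-fold over 23 and *Atp2a1* by 3.08-fold over 20. *Myh4* varied by 6.82-fold over 22, with its lowest ratio, 0.226, in dam 4 of FA diet + fluoxetine and a median of 1.02. *Tpm2* varied by 38.1-fold over 23, more than its level did. The widest other ratios were those of *Actn2* (40.8-fold over 8), *Myh2* (19.3-fold over 8) and *Ldb3* (14.8-fold over 19). *Pvalb* (7.96-fold over 22), *Actn3* (6.925-fold over 20), *Eno3* (6.78-fold over 21) and *Myh1* (6.75-fold over 16) varied about as much as *Myh4* or more.

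The slow isoforms followed the other members only weakly. The median rho on log2 CPM was 0.949 among the fast isoforms. It was 0.609 among the slow isoforms *Myh7*, *Myl2*, *Tnnt1*, *Tnni1* and *Tnnc1*, and 0.141 between fast and slow. Libraries at 0 were not held as exact ties there, so the values that involve slow isoforms are inexact. On CPM, with ties kept, rho with the muscle sum was 0.291, 0.314, 0.482, 0.236 and 0.126 for these 5 slow isoforms in turn. The slow isoforms held over 5% of the slow and fast isoform counts, with at least 100 slow counts, in 4 libraries. These were dam 1 of FA diet + saline with 31.1% (95% Clopper-Pearson interval 26.5 to 36.1; 117 slow counts), dam 4 of FA diet + fluoxetine with 23.8% (22.8 to 24.9), dam 11 of breeder diet + saline with 9.63% (9.33 to 9.94) and dam 1 of breeder diet + saline with 6.16% (5.38 to 7.01). In dam 5 of breeder diet + fluoxetine, the library with the most muscle RNA, the share was 0.258% (0.227 to 0.293). In dam 3 of FA diet + fluoxetine, which stands apart, 60.3% rested on 65 counts of *Tnnc1* and 17 of *Myh7*.

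*Myh7* (slow myosin heavy chain) had a count in 8 of 31 libraries. Its level was 59.6 CPM in dam 11 of breeder diet + saline and 21.1 CPM in dam 4 of FA diet + fluoxetine, and 3.72 CPM or less in all others. Corrected for transcript length, *Myh7* made up 23.4% of the 4 heavy chains in dam 4 of FA diet + fluoxetine, beside 28.6% *Myh4*, 28.7% *Myh1* and 19.3% *Myh2*. In dam 5 of breeder diet + fluoxetine the same shares were 0.237%, 89.8%, 7.24% and 2.69%. Of the other genes listed as slow fibre markers, *Myl3* was highest in dam 11 of breeder diet + saline at 8.34 CPM. *Atp2a2* (SERCA2) was at 23.1 to 51.8 CPM in all libraries, with a rho of 0.068 to the muscle sum. The study also places SERCA2 in the mammary epithelial cell, so its presence is not read as slow fibres.

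**Figure D3:**
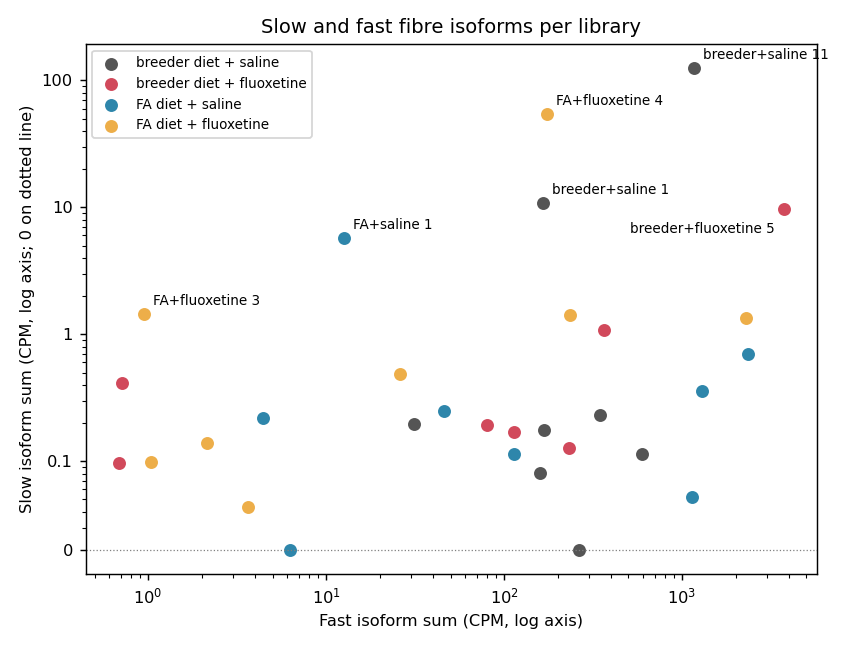
Summed CPM of the slow isoforms against that of the fast isoforms in each library, both on log axes, coloured by group, with a sum of 0 drawn on the dotted line. Dam 11 of breeder diet + saline (124.9 CPM slow) and dam 4 of FA diet + fluoxetine (54.6 CPM slow) lie above the other libraries, and libraries with fast sums over 1000 CPM lie between 0.0519 and 124.9 CPM on the slow axis.

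How the muscle RNA bore on the comparisons of diet and drug was asked with edgeR's quasi-likelihood test at a false discovery rate (FDR) of 10%, Benjamini-Hochberg adjusted over 14362 genes. Of the 40 members, 37 passed the filter on low counts, and *Myl2*, *Tnni1* and *Sln* did not. No member passed the FDR in any of 7 comparisons, which were fluoxetine, FA, their interaction, fluoxetine within each diet and FA within each treatment. The same was found with edgeR's likelihood ratio test, DESeq2 and limma voom with sample quality weights. Over all genes, the share past the FDR was 0.0209% for fluoxetine (3 genes) and 0% for the other 6 comparisons. The 7 comparisons share groups, so their values are set side by side and not taken as independent.

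With an unadjusted p not above 0.05, 0 of 37 members were called for fluoxetine, against 9.92% of all genes, and 0 for FA, against 5.08%. The count was 0 for fluoxetine on breeder diet (4.39% of all genes), 0 for fluoxetine on FA diet (9.98%) and 0 for FA under fluoxetine (3.75%). It was 3, all higher, for the interaction (3.84%), and 3, all lower, for FA under saline (6.09%). These 3 were the slow isoforms *Myh7*, *Tnnt1* and *Tnnc1* in both. DESeq2 called 0 of 40 members for the interaction and for FA under saline and 1 for fluoxetine on breeder diet, limma voom called 0 in all 7, and the likelihood ratio test called 2 in each of both comparisons.

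The error of the members was large. The median SE of their log2 fold change for fluoxetine was 0.951, against 0.168 over all genes, and in single-group comparisons 1.35 to 1.4, against 0.234 to 0.243. For fluoxetine the members' median log2 fold change was -0.03 (14 higher, 23 lower), beside 0.02 over all genes, and for FA it was -0.17 (11 higher, 26 lower), beside 0.02. For the interaction it was -1.58 (5 higher, 32 lower), beside 0.03. Fluoxetine on breeder diet gave 0.70 (33 higher, 4 lower), fluoxetine on FA diet -0.81 (5 higher, 32 lower), FA under saline 0.62 (30 higher, 7 lower) and FA under fluoxetine -0.90 (3 higher, 34 lower). The all-gene medians of these 4 were 0.00, 0.04, 0.00 and 0.02. The limma voom fit works on log values and gave each library a quality weight. With it the members' median was 0.60 for the interaction, -1.55 for fluoxetine on breeder diet and -0.96 for FA under saline, each with the other sign. For fluoxetine the median was then -1.06.

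For fluoxetine, *Acta1* had a log2 fold change of 0.02 ± 1.10 (SE), *Myh4* of -0.10 ± 1.19, *Tnnt3* of 0.09 ± 1.11, *Ckm* of 0.01 ± 1.04, *Atp2a1* of -0.25 ± 1.11 and *Ttn* of -0.16 ± 0.94. *Mb* had -0.01 ± 0.81, *Des* -0.02 ± 0.81, *Tpm2* -0.04 ± 0.36, *Myh7* -0.36 ± 1.30 and *Tnnt1* 0.18 ± 1.01. The smallest p among the members was that of *Ampd1*, at -0.69 ± 0.91 (edgeR adjusted p = 0.838). Each of these differences was smaller than its error. The signs of *Acta1*, *Tnnt3* and *Ckm* turned with limma voom to -1.77, -2.30 and -1.19, and *Myh4* was then at -2.54, none past the FDR (lowest adjusted p of these 4, 0.476).

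In the interaction and the comparisons of single groups the slow isoforms had the largest log2 fold changes of the members. *Myh7* was at 7.02 ± 2.66 for the interaction (edgeR adjusted p = 0.977), at -4.70 ± 1.93 for FA under saline (adjusted p = 0.812) and at -3.87 ± 1.90 for fluoxetine on breeder diet (adjusted p = 1). *Tnnc1* was at 2.82 ± 1.44 for fluoxetine on FA diet (adjusted p = 0.518). Of the 2489 counts of *Myh7*, 1687 came from dam 11 of breeder diet + saline and 562 from dam 4 of FA diet + fluoxetine, and without either of these libraries neither *Myh7* nor *Tnnc1* passed the filter on low counts. *Myh7* and *Tnnc1* were each fitted with only 25 of the 31 libraries left out in turn, so the loss of other libraries also ended their test. Dam 5 of breeder diet + fluoxetine was the only library of its group with counts of *Myh7*. Without this dam the log2 fold change of *Myh7* was 13.66 for the interaction, -10.5 for fluoxetine on breeder diet and -3.68 for fluoxetine. Against a group at 0 such values depend on the prior count and are no measure of size. *Actn2* had the smallest p for FA, at -0.58 ± 0.47 (adjusted p = 0.943), and for FA under fluoxetine, at -0.94 ± 0.67 (adjusted p = 1).

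**Figure D4:**
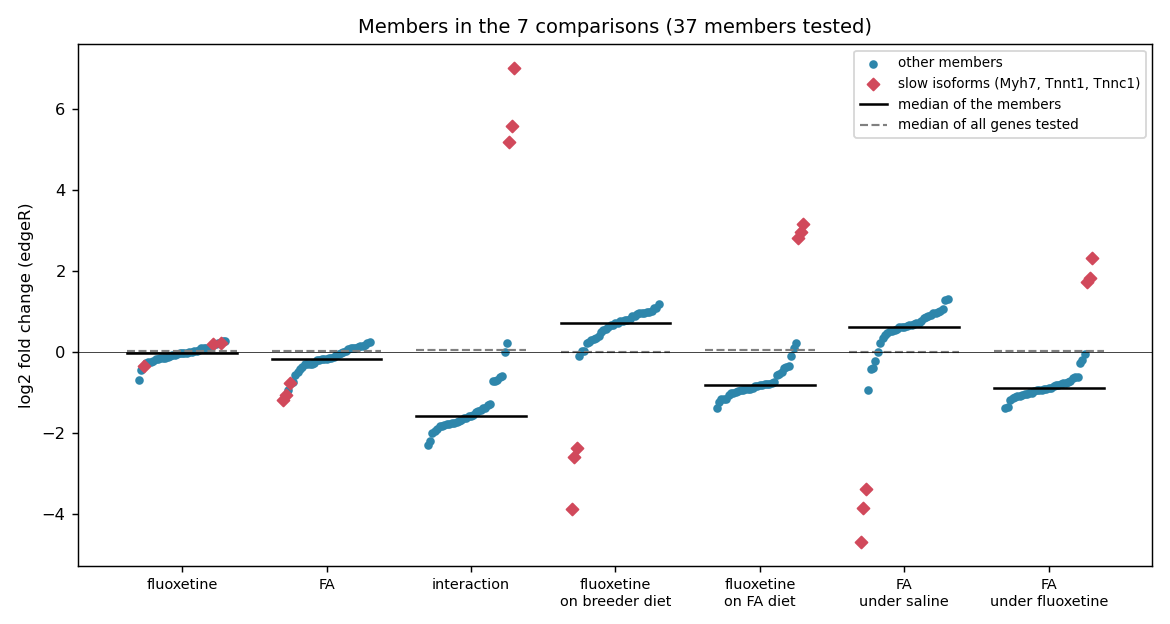
Log2 fold change of the 37 tested members in the 7 comparisons, each point 1 gene, with the median of the members (solid line) and of all genes tested (dashed line). The members lie between -0.69 and 0.27 for fluoxetine, most lie together in the interaction and the comparisons of single groups, and the slow isoforms (diamonds) lie on the other side of 0 there.

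Single dams set these medians. Without dam 5 of breeder diet + fluoxetine the members' median went from 0.70 to -1.51 for fluoxetine on breeder diet, from -0.90 to 1.38 for FA under fluoxetine and from -1.58 to 0.66 for the interaction. For the main effects it was then -1.18 for fluoxetine and 0.95 for FA. Without dam 10 of FA diet + fluoxetine it went from -0.81 to -2.90 for fluoxetine on FA diet and from -0.90 to -2.98 for FA under fluoxetine, and to -3.61 for the interaction. It was then -1.07 for fluoxetine and -1.09 for FA. Leaving out dam 4 of FA diet + saline gave -0.14 for fluoxetine on FA diet, -0.10 for FA under saline and 0.32 for fluoxetine. Without dam 11 of breeder diet + saline it was 1.33 for fluoxetine on breeder diet and 1.24 for FA under saline. With the library that stood apart, dam 3 of FA diet + fluoxetine, left out, the medians were 0.05 for fluoxetine, -0.05 for FA, -1.44 for the interaction, -0.66 for fluoxetine on FA diet and -0.73 for FA under fluoxetine. The count of members past the FDR was 0 with each of the 31 libraries left out.

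**Figure D5:**
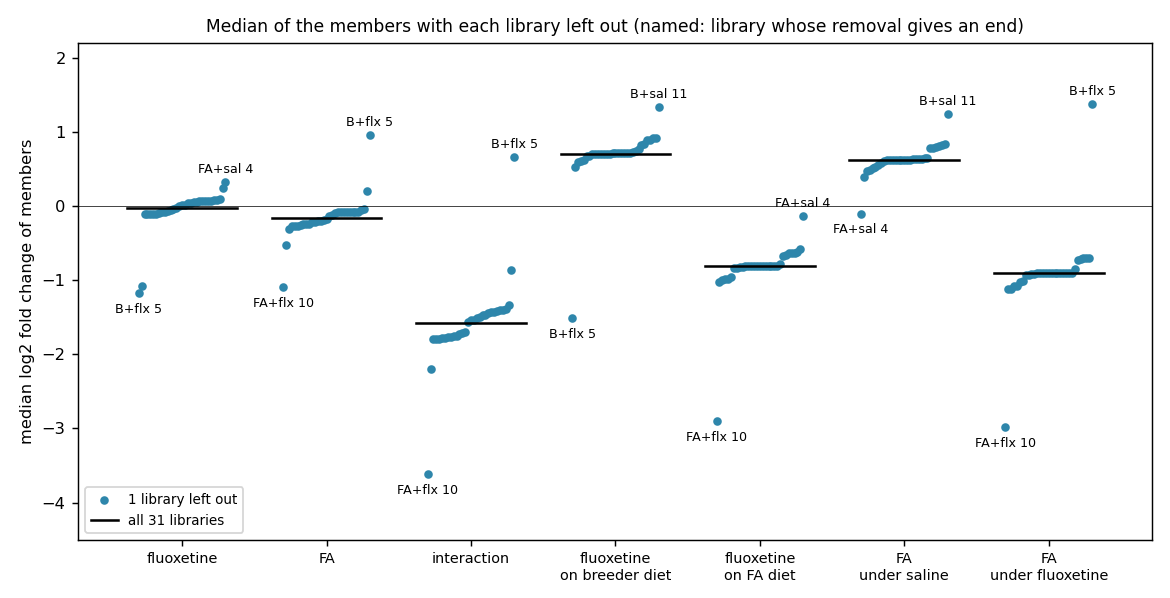
Median log2 fold change of the members in the 7 comparisons with all 31 libraries (line) and with each library left out in turn (points). The libraries whose removal gave the lowest and the highest median are named (B, breeder diet; FA, FA diet; sal, saline; flx, fluoxetine; then the dam number), and dam 5 of breeder diet + fluoxetine moved 4 of the 7 medians across 0.

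Group medians of the muscle sum gave another picture than these fits. The log2 difference of medians was -0.80 for fluoxetine on breeder diet, -0.92 for fluoxetine on FA diet, -1.18 for FA under saline and -1.30 for FA under fluoxetine. All 4 were below 0, while 2 of the 4 medians of fitted log2 fold changes were above 0. No p is given for the sum, since the genes were chosen with results known, and the group ranges overlapped. With CPM by total counts in place of TMM, the difference for fluoxetine on FA diet was -0.24 and that for FA under fluoxetine -0.58. With *Des* and *Tpm2* left out of the sum these were -2.35 and -2.90. With dam 3 of FA diet + fluoxetine left out of the full sum they were -0.45 and -0.83.

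Other genes of skeletal muscle moved with the members. A list of 57 further muscle genes summed to 45.6 to 1064 CPM, highest in dam 5 of breeder diet + fluoxetine, with a rho of 0.944 to the muscle sum, and 50 passed the filter. None passed the FDR in the 7 comparisons. In their order above, 1, 0, 0, 0, 1, 0 and 2 of the 50 had an unadjusted p not above 0.05. Over all genes the shares were 9.92%, 5.08%, 3.84%, 4.39%, 9.98%, 6.09% and 3.75%. In each comparison with such a gene, *Chrnb1* had the smallest p of the list. It was highest in dam 3 of FA diet + fluoxetine, at 13.6 CPM against a median of 0.572, with a rho of 0.363. Among those of highest mean level were *Pfkm* (muscle phosphofructokinase, rho 0.935), *Pdlim3* (a Z-disc adaptor, 0.763), *Fbxo32* (atrogin, a ubiquitin ligase, 0.228) and *Jph2* (a junctophilin of the calcium release unit, 0.660). *Myf6*, a regulator of mature fibres, followed at a rho of 0.924. Of the other progenitor and myoblast markers, *Myod1* and *Cdh15* had 97 and 95 counts over all libraries and rho of 0.748 and 0.676, *Myog* and *Myf5* had 29 and 8 counts, and *Pax7* of satellite cells and *Mymk* of fusing myoblasts had no count in any library.

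Marker lists of other contractile and neighbouring cells had rho between -0.242 and 0.164 with the muscle sum. Smooth muscle and myoepithelial contractile genes, with *Acta2* and *Myh11*, summed to 251 to 798 CPM with a rho of -0.176, myoepithelial and basal genes, with *Krt14* and *Krt5*, to 57.3 to 127 CPM (-0.051), and white adipocyte genes, with *Adipoq*, to 73.2 to 529 CPM (-0.120). In the first of these lists *Synpo2* had a rho of 0.650. Cardiac markers summed to 3.89 to 26.9 CPM (-0.242), nearly all of it *Tnni3*, and *Nppb* and *Myl7* were at 0 in all libraries. Peripheral nerve genes gave 0.164, skin keratinocyte genes, with 7 of 8 matched, -0.117, and milk protein genes -0.039. The brown adipocyte list gave -0.054 and was almost all *Cidea*, which milk-secreting cells also express, while *Ucp1* had a count in 8 libraries.

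Over all 14325 tested genes outside the list, Pearson's r of log2 CPM with the log2 muscle sum, with group means removed, was above 0.9 for 63, above 0.8 for 123 and above 0.5 for 299. It was below -0.5 for 25 genes. Of the 63, 23 were in the list of further muscle genes. The 10 highest were *Klhl31* (0.975), *Art1* (0.974), *Ak1* (0.966), *Apobec2* (0.965), *Myom2* (0.964), *Rtn2* (0.963), *Rbfox1* (0.962), *Eef1a2* (0.961), *Hjv* (0.961) and *Mylk4* (0.961), each highest in dam 5 of breeder diet + fluoxetine. These values are over 31 libraries that share their scaling. Genes with r above 0.8 came to 154 (1.07% of the genes tested), of which 31 were members. The next counts take these 123 other genes and all 37 tested members, whatever their r. Among the 100 genes with the largest log2 fold change in either direction, they held 1 place for fluoxetine, 5 for FA and 16 for the interaction. They held 4 and 5 for fluoxetine on breeder and FA diet, and 5 and 10 for FA under saline and under fluoxetine. Members held 0, 2 and 5 of the first 3 counts and 3 of each of the others. In these single-group comparisons the 3 members were the slow isoforms *Myh7*, *Tnnt1* and *Tnnc1*.

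The muscle sum was then set against the genes called for fluoxetine. With group means removed, *Elovl6* (a fatty acid elongase) had an r of -0.314 to it, *Serhl* -0.215 and *Pgm5* (a phosphoglucomutase relative of adherens junctions) -0.064. With group means kept, Spearman's rho was -0.390, 0.089 and 0.175 for the same genes, with another sign for *Serhl* and *Pgm5*. Both the coefficient and the group means differ here, so the change of sign cannot be laid to either alone. *Elovl6* was 0.90 ± 0.16 higher on the log2 scale (edgeR adjusted p = 0.0404), *Serhl* fell by 0.56 ± 0.11 and *Pgm5* fell by 0.62 ± 0.12 (both adjusted p = 0.0404). With the log2 muscle sum as a covariate in edgeR the same 3 genes passed, at 0.82 (adjusted p = 0.0819), -0.59 (adjusted p = 0.0681) and -0.63 (adjusted p = 0.0819). Without dam 8 of breeder diet + fluoxetine none of the 3 passed in edgeR (adjusted p = 0.107, 0.107 and 0.109). *Serhl* and *Pgm5* also did not pass without dam 2 of FA diet + saline, nor did *Pgm5* without dam 11 of that group or dam 6 of breeder diet + saline. For fluoxetine on FA diet, *Serhl* passed with the covariate (-0.80, adjusted p = 0.0923) and not without it (adjusted p = 0.142). With an unadjusted p not above 0.05, 1425 genes outside the list were called for fluoxetine without and 1312 with the covariate, of which 1126 were the same. For fluoxetine on FA diet the counts were 1434 and 1238 (1110 the same), and for FA under fluoxetine 538 and 451 (397 the same). In the other 4 comparisons they moved from 729 to 681, 549 to 528, 630 to 644 and 872 to 890, for FA, the interaction, fluoxetine on breeder diet and FA under saline. The part of muscle RNA in any of these calls was not tested beyond this covariate.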

How the data were processed

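Mammary glands were frozen, and poly-A RNA was sequenced as 150-bp paired reads on a NovaSeq. The authors trimmed reads with Trim Galore 0.4.4, aligned them to GRCm39 with HISAT2 and counted reads per gene with htseq-count. The deposited values are raw counts, 1 file per library. The annotation release and the strand setting were not given in the sources used here, so overlapping genes may share reads. Gene symbols were taken from GENCODE vM39, which left 667 of 55379 genes unnamed.

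The members and lists were chosen with earlier results of these data known. Counts were filtered by filterByExpr (41017 genes removed, 14362 tested), scaled by TMM and tested with edgeR 4.0.16 (quasi-likelihood, robust) in R 4.3.3, in a model of 4 group means. FA and fluoxetine main effects were averaged over the other factor. P-values were Benjamini-Hochberg adjusted over all genes tested. The study's likelihood ratio test, DESeq2 1.42.0 and limma 3.58.1 voom with sample quality weights were alternatives. So were other filters and scalings, a replicate block, the muscle sum as a covariate and each library left out. Log2 CPM used a prior count of 2. The test scripts were tested on simulated data. Libraries of a group differed beyond sampling noise (lowest chi-square per degree of freedom 14.4).

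All 40 members are given by level. Log2 fold changes are printed for the member of smallest p in each comparison and for 11 members fixed by role, *Acta1*, *Myh4*, *Myh7*, *Tnnt3*, *Tnnt1*, *Ckm*, *Atp2a1*, *Ttn*, *Mb*, *Des* and *Tpm2*. Of the further muscle genes the 5 of highest mean CPM are named, apart from 1 that is not reported here, and of the other genes those past the FDR and the 10 most like the muscle sum. Further members, and *Chrnb1* of the further muscle genes, were named where the text turned on them.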

Additional observations from a re-analysis of the deposited data

Results flagged for a closer look

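In each group the highest and lowest library were compared with the rest by Dixon's criterion for 14 measures: the muscle sum, the slow isoform sum, the sum of the further muscle genes and 11 members. Of 56 sets, 42 held a library far from the others. Chance gives about 1 in 20 for normally distributed values, but CPM were skewed and the measures move together, so the count is not read against that rate. On log2 of the muscle sum, a scale chosen after seeing the data, 0 of the 4 groups held such a library (gap over range 0.438 in breeder diet + fluoxetine, 0.371 in breeder diet + saline, 0.424 in FA diet + fluoxetine and 0.149 in FA diet + saline). All values are CPM.

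Dam 5 of breeder diet + fluoxetine stood apart in all 14 measures. Its muscle sum was 11266 (next highest 1118), its slow isoform sum 9.64 and its sum of further muscle genes 1064. *Acta1* was at 1536, *Myh4* at 1318, *Myh7* at 3.58, *Tnnt3* at 1039, *Tnnt1* at 2.48 and *Ckm* at 1272. *Atp2a1* was at 707, *Ttn* at 316, *Mb* at 16.0, *Des* at 195 and *Tpm2* at 588.

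Dam 11 of breeder diet + saline stood apart in 11. Its muscle sum was 3792 (next highest 1792), its slow isoform sum 124.9 and its sum of further muscle genes 448. *Acta1* was at 471, *Myh4* at 453, *Myh7* at 59.6, *Tnnt1* at 22.1 and *Atp2a1* at 277. *Ttn* was at 164, *Mb* at 14.7 and *Des* at 66.6.

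Dam 10 of FA diet + fluoxetine stood apart in 10. Its muscle sum was 6562 (next highest 813) and its sum of further muscle genes 551. *Acta1* was at 708, *Myh4* at 1010, *Tnnt3* at 623, *Ckm* at 706 and *Atp2a1* at 465. *Ttn* was at 193, *Des* at 101.5 and *Tpm2* at 382.

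Dam 4 of FA diet + fluoxetine stood apart in slow isoforms, with a sum of 54.6, *Myh7* at 21.1 and *Tnnt1* at 11.7. Dam 1 of FA diet + saline had a slow isoform sum of 5.72 and *Myh7* at 2.15, far above its group. Dam 4 of FA diet + saline had *Atp2a1* at 668 and *Ttn* at 218.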

How the results depend on the processing

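No member passed the FDR with any library left out, nor under the other tools, filters and scalings or the replicate block. Members were not tested with the muscle sum as a covariate. For fluoxetine, the 3 genes past the FDR became 45 with the likelihood ratio test, 80 with DESeq2, 48 with limma voom and 1 with every gene of at least 1 count tested, and ran from 0 to 19 with a library left out. The lowest count came without breeder diet + fluoxetine dam 8 and the highest without breeder diet + saline dam 4. Other libraries that moved this count by over 1.5 times were dams 7 (16) of breeder diet + fluoxetine, 3 (5) of breeder diet + saline, 2 (11) and 10 (7) of FA diet + fluoxetine, and 2 (1) and 3 (5) of FA diet + saline. Fluoxetine on breeder diet gave 0, and 5, 4 and 1 with the likelihood ratio test, DESeq2 and limma voom. Fluoxetine on FA diet gave 0, and 4 and 10 with the first 2 of these, 1 with the muscle sum as a covariate and 0 to 1 with a library left out (1 when breeder diet + fluoxetine dam 9 was absent, likewise FA diet + fluoxetine dam 1). FA under saline gave 0, and 153 with limma voom. The cause was not tested.

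Members' log2 fold changes for fluoxetine turned sign with DESeq2 in *Tnnt1* (-0.37) and *Mb* (0.0014), with limma voom in *Acta1* (-1.77), *Tnnt3* (-2.30) and *Ckm* (-1.19), and with the 20 most abundant genes left out in *Mb* (0.0071). With a library left out they ran from -1.23 to 0.42 in *Acta1*, -1.64 to 0.29 in *Myh4*, -1.13 to 0.43 in *Tnnt3*, -1.18 to 1.75 in *Tnnt1*, -1.18 to 0.35 in *Ckm*, -1.48 to 0.20 in *Atp2a1*, -1.18 to 0.25 in *Ttn*, -1.05 to 0.56 in *Mb*, -1.15 to 0.29 in *Des* and -0.50 to 0.11 in *Tpm2*. *Actn2* ran from -0.73 to 0.0501 for FA and from -1.24 to 0.32 for FA under fluoxetine. The median muscle sum of breeder diet + saline was 3122 CPM when the 20 most abundant genes were left out of the library sizes, since these hold most counts.

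Same-numbered dams of different groups had a median r of 0.079 over 28 pairs, of which 12 were over 0.1, against -0.007 for other pairs. Not every pair was over 0.1, and the main fit did not take the numbers as pairs. A batch shared by number was not tested beyond the replicate block. The numbers 7, 8, 9 and 13 occurred only in breeder diet + fluoxetine. With the block, these dams added nothing to the comparisons, and dams 2, 5 and 6 alone stood for that group. The block results below thus also reflect this loss of libraries and are not a batch adjustment alone. With the replicate block 0 genes passed for fluoxetine, with edgeR adjusted p of 0.466 for *Elovl6*, 0.238 for *Serhl* and 0.482 for *Pgm5*. With the replicate block the members' median was -0.26 for fluoxetine, -2.93 for FA, -3.04 for the interaction, 1.22 and -1.89 for fluoxetine on breeder and FA diet, -1.41 for FA under saline, which turned its sign, and -4.48 for FA under fluoxetine. Signs also turned in *Acta1* (-1.44), *Myh7* (7.60), *Tnnt3* (-1.52), *Ckm* (-1.13), *Mb* (0.81) and *Tpm2* (0.0722) for fluoxetine, and in *Myh7* for the interaction (-4.63) and fluoxetine on breeder diet (9.92). *Serhl* and *Pgm5* also did not pass with every gene of at least 1 count tested (edgeR adjusted p = 0.127 and 0.166). A count of 0 allows up to 0.0524 to 0.243 CPM, depending on the library.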
